A study of Mus musculus with 2 samples.

Results

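Kit, Flt3 and Csf1r are the receptor tyrosine kinases through which early blood cells and macrophages receive their growth factors, and Kdr, Pdgfra, Pdgfrb, Tek, Tie1, Flt1 and Flt4 are related receptors of vessels and stroma. The question asked of the data was where the transcription factor Myb was bound around these 10 genes in normal blood progenitors. A Myb peak was assigned to a gene when its summit lay inside the gene, as annotated by GENCODE vM21, or within 50 kb of it, and for Kit up to 200 kb upstream of its start. By this rule 43 of the 25793 peaks in the deposited list belonged to the set, and 9 of the 10 genes had at least 1 peak.

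Peaks came from ChIP-Seq of Myb in Lin– marrow of WT mice, the mixed cells that remain when marrow is depleted of mature lineages and among which stem and progenitor cells (HSPCs) are common. The series held 2 samples, 1 precipitated with an antibody against Myb and 1 with nonspecific rabbit IgG, both from WT cells with no treatment named in the labels. The study kept its mice on the C57BL/6 background and used WT for Ep300 fl/fl mice without Cre, which received poly(I:C) as young adults like the deleted mice, but whether the mice of this experiment carried the floxed allele or were injected, and how many were pooled, was not given in the sources used here. Each precipitate gave 1 library without replicates, so values describe this Myb library, no p-value is given between genes or groups, and the variation between mice is unknown. Fold enrichment is the authors' ratio of summit signal in the Myb library to that expected from IgG, with a median of 4.51 over the whole list, quartiles of 3.73 and 5.95, and a 90th percentile of 7.95. The reads behind a peak were recovered from the deposited values, with a median of 18 and a range from 7 to 130, and their exact Poisson 95% intervals cover counting error only.

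Type III receptors, which include Kit, Flt3, Csf1r and both PDGF receptors, are activated when a dimeric ligand brings receptor molecules together and their kinase domains phosphorylate each other. Kit binds stem cell factor and is carried by stem cells, progenitors and mast cells. Flt3 binds Flt3 ligand and is carried by multipotent and lymphoid progenitors and dendritic cell precursors, and Csf1r binds Csf1 and Il34 and is required for most macrophages. Flt1, Kdr and Flt4 are the receptors for vascular endothelial growth factors, and Tek and Tie1 form the angiopoietin receptor system of endothelium. Myb, the product of the Myb proto-oncogene, is a DNA-binding activator required for definitive hematopoiesis. Kit, Pdgfra and Kdr lie side by side on mouse chromosome 5, and Flt3 and Flt1 lie together elsewhere on the same chromosome. A peak records where Myb was enriched on chromatin and does not tell which gene it acts on, and neither RNA nor protein of these receptors was measured in this series.

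The sequences below are those of peak summits at which the results turn, 101 bp each, printed 5′ to 3′ on the strand of the receptor gene from the mm10 reference (GRCm38). Capitals mark matches to motifs of blood transcription factors searched on both strands, and a sequence with no capitals held none of them. The Myb motif searched was NAACNG with C or T as the first base and G or T as the fifth, which gives 4 forms. The others were GGAAGT for ETS factors, TGTGGT for RUNX, AGATAA for GATA factors, CAGCTG for the E-box, TTGCNNNAA for CEBP, TGANTCA for AP-1 and, for IRF, GAAA repeated after any 2 bases. Where matches overlapped, their capitals run together. The Kit set shows all distal summits, the stronger summit in its first intron and the strong summit beyond its 3′ end.
Kit 192.5 kb upstream, chr5:75382352-75382452, plus strand: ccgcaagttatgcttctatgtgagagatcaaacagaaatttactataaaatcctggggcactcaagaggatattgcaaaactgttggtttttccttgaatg
Kit 114.2 kb upstream, chr5:75460686-75460786, plus strand: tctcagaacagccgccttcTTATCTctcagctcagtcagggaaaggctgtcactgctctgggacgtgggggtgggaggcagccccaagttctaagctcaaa
Kit 113.4 kb upstream, chr5:75461512-75461612, plus strand: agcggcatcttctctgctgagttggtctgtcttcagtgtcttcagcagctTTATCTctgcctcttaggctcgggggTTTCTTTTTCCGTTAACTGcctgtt
Kit intron 1, chr5:75575899-75575999, plus strand: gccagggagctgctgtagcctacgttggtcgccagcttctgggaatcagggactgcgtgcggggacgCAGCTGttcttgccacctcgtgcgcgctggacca
Beyond the 3′ end of Kit, chr5:75730870-75730970, plus strand: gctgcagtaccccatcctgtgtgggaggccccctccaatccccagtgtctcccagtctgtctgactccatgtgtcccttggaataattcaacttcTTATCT

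The Flt3 and Flt1 set shows the 3 strongest noncoding summits of that stretch and the other Flt3 summits that held the Myb motif, and the last sequences are the weaker summits inside Pdgfra and Kdr for comparison.
Flt3 intron 9, chr5:147366542-147366642, minus strand: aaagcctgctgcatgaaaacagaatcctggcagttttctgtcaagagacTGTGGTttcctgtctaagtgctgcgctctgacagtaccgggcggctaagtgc
Flt3 2.25 kb upstream, chr5:147402692-147402792, minus strand: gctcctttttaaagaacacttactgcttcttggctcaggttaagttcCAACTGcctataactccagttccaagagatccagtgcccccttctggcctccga
Flt3 26.2 kb upstream, chr5:147426614-147426714, minus strand: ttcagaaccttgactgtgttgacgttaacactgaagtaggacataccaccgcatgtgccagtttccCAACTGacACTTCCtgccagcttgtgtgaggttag
Flt3 41.6 kb upstream, inside Pan3, chr5:147442002-147442102, minus strand: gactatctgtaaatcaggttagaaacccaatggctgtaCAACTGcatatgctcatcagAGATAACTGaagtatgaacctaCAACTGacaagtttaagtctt
Flt1 window, inside Pan3, chr5:147527861-147527961, minus strand: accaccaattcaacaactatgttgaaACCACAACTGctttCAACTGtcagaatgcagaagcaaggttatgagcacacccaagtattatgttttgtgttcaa
Pdgfra exon 16, chr5:75182932-75183032, plus strand: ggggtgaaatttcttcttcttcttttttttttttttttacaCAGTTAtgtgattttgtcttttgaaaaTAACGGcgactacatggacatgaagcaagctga
Kdr intron 10, chr5:75962240-75962340, minus strand: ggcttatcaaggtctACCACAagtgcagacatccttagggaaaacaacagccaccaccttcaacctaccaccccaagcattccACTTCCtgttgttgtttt

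Kit (chr5:75574916-75656722, plus strand) had Myb at its 5′ end and at a pair of distant upstream places. The window held 5 peaks, and the nearest protein-coding start site was that of Kit for all 5. The strongest was in intron 1, 1.03 kb after the main start (chr5:75574830-75576235), at 8.71-fold with 31 reads (95% interval 21.1 to 44.0), and the peak region reached across the start site itself. Its fold enrichment was above that of 92.7% of all peaks. Its summit held a match to the E-box CAGCTG and no Myb match. The other peak of intron 1, 4.66 kb after the start (chr5:75578877-75579709), had 2.22-fold and 16 reads. Its background was 5 on a scale where each read counts 0.769. Its q-value was above 0.05, as for 1 of the 43 members and 7.24% of the whole list.

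The distal Kit peaks were 192.5, 114.2 and 113.4 kb upstream of the start. The farthest (chr5:75382132-75382690) had 7.55-fold with 24 reads and none of the searched motifs. The one at 114.2 kb (chr5:75460359-75460998) had 5.64-fold with 28 reads and a GATA match. Its neighbor at 113.4 kb (chr5:75461552-75461756) was weaker at 3.14-fold with 15 reads, and its summit held a pair of overlapping Myb matches beside a GATA and an IRF match. Read intervals of the 3 distal peaks overlapped one another, so their order rests on background as well as on reads. All 3 lay outside the 50 kb window used for the other genes, and by that window Kit had 2 peaks, or 1.10 per 100 kb. Its count was above that of 44.0% of protein-coding genes and its density above that of 46.4%.

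Beyond the 3′ end of Kit, a peak stronger than any member lay outside the window. It covered chr5:75730538-75731682, and its summit was 74.2 kb past the end of Kit and 156 kb from its start. Its fold enrichment was 19.9 with 75 reads (59.0 to 94.0), which placed it at rank 43 of the whole list. The interval overlapped those of the strongest peaks at Flt3 and in the Flt1 window. The nearest start of a protein-coding gene, at 81.7 kb, was that of another annotated Kit transcript, which begins inside the gene. A GATA match stood at the edge of its summit window. In all, 9 peaks lay between the windows of Kit and Kdr, and the next strongest of them had 7.35-fold.

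**Figure D1:**
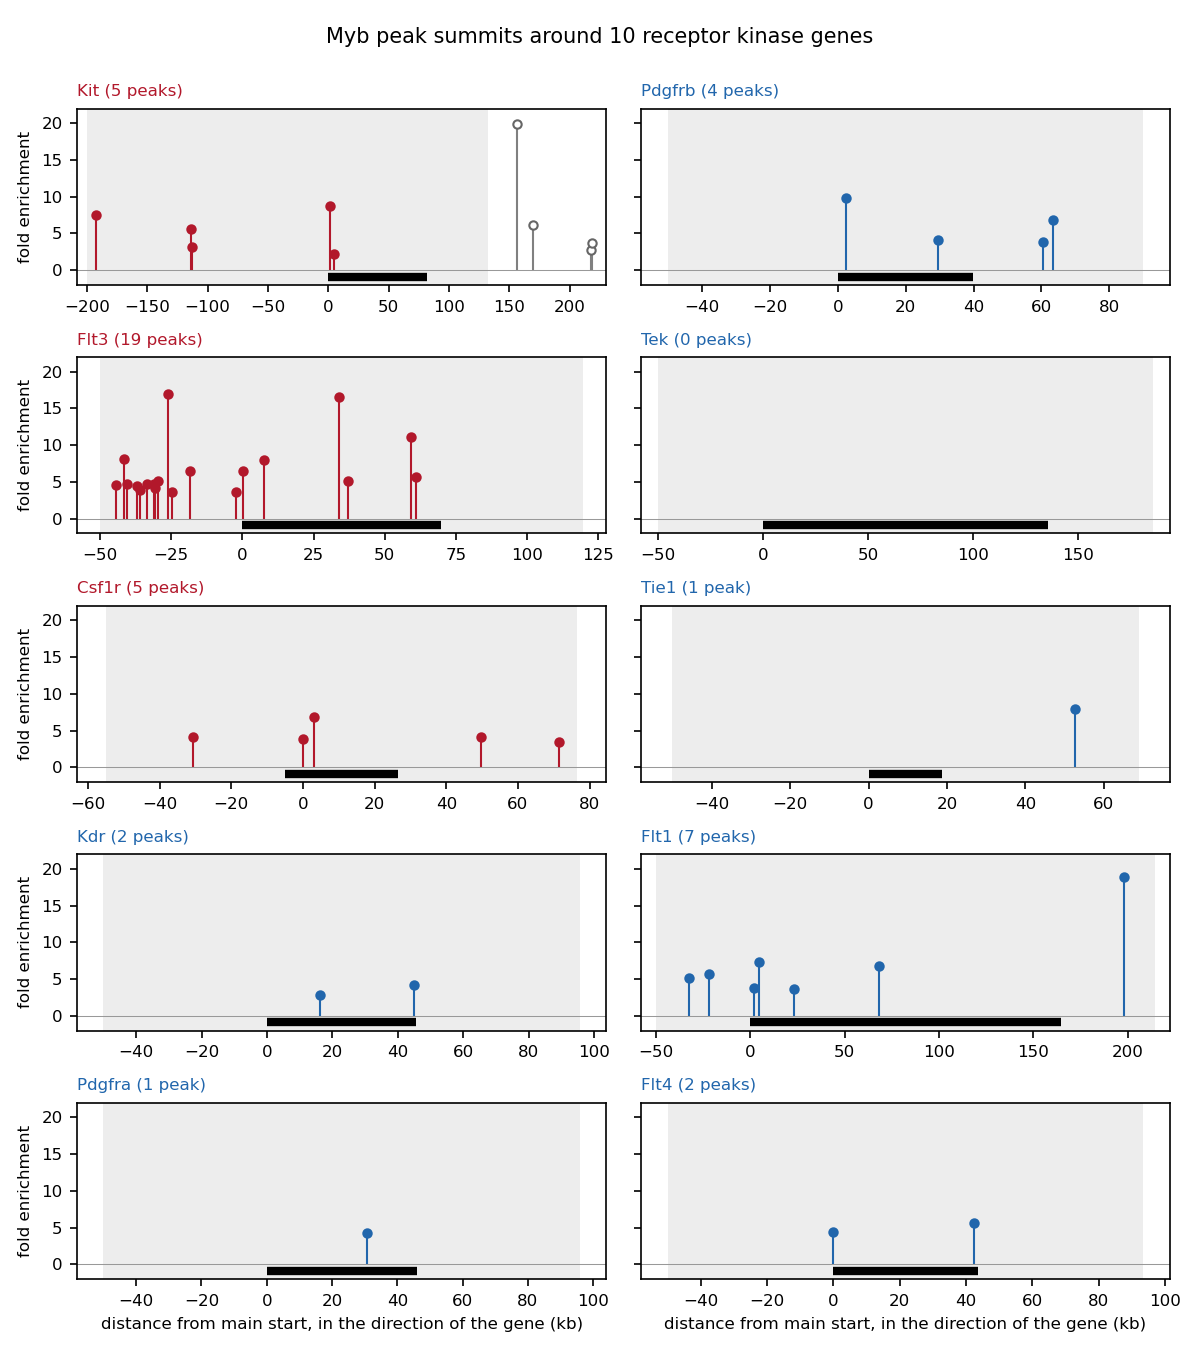
Myb peak summits around each receptor gene. Each stem is a summit, with its distance from the main start site in kb along the direction of the gene (x axis) and its fold enrichment over IgG (y axis). Black bars are gene bodies, gray areas are the windows searched, red marks the blood receptors and blue the vascular and stromal receptors. Open gray circles in the Kit panel are peaks beyond its window, including the 19.9-fold peak 156 kb from the start. Flt3 has 19 summits, and Tek has none.

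Flt3 (chr5:147330741-147400489, minus strand) had the densest Myb binding of the 10 genes, inside the gene and across its upstream flank. The window held 19 peaks, or 11.2 per 100 kb. All had a q-value of at most 0.05, while 7.24% of the whole list were above it. This count was above that of 99.2% of protein-coding genes, for which the median was 2 peaks with quartiles of 0 and 5. Its density was above that of 97.6% of them, for which the median was 1.52 per 100 kb. Inside the gene there were 6 peaks, or 8.60 per 100 kb of gene body.

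The strongest peak inside Flt3 was in intron 9, 33.9 kb after the start (chr5:147365931-147366826), at 16.6-fold with 61 reads (46.7 to 78.4). It stood at rank 141 of the whole list, and a RUNX match lay at the center of its summit window. A peak over exon 20 (chr5:147340124-147341856), 59.2 kb after the start, had 11.1-fold with 42 reads (30.3 to 56.8) and no searched motif. In intron 1 the peak at 7.56 kb (chr5:147392514-147393096) had 7.95-fold with 31 reads, close to the 90th percentile of the list. The Flt3 start site itself was covered by a peak (chr5:147398987-147400900) whose summit was 75 bp into exon 1, at 6.49-fold with 24 reads and a RUNX match. At 2.25 kb upstream a weak peak of 3.67-fold and 13 reads held a Myb match at its center.

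Upstream of Flt3, the strongest peak was 26.2 kb from the start (chr5:147425549-147427643), at 17.0-fold with 65 reads (50.2 to 82.9), rank 113 of the list. A Myb match and an ETS match lay within a few bases of each other near its summit. The peak at 41.6 kb upstream (chr5:147441662-147442701) had 8.18-fold with 28 reads, and its 101 bp held 3 Myb matches, one of them overlapping a GATA match. The 14 peaks beyond the 5 strongest had 3.67- to 6.56-fold. Read intervals of the intron 9 peak and the peak at 26.2 kb overlapped, so these were not ranked against each other.

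Flt3 shares its upstream flank with Pan3, which encodes a subunit of a poly(A) deadenylase and is transcribed in the opposite direction from a start 29.7 kb away. Of the 19 peaks, 12 had a start of Pan3 as the nearest protein-coding start, 5 that of Flt3 and 2 that of Urad. Urad encodes an enzyme of uric acid breakdown and lies beyond the 3′ end of Flt3. The peak at 26.2 kb was 3497 bp from a Pan3 start, and 8 of the 19 lay inside Pan3. The exon 20 peak was among the 2 nearest to Urad, at 18.8 kb. Between the bodies of Flt3 and Pan3 there were 5 peaks. Which gene the shared peaks act on was not tested.

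**Figure D2:**
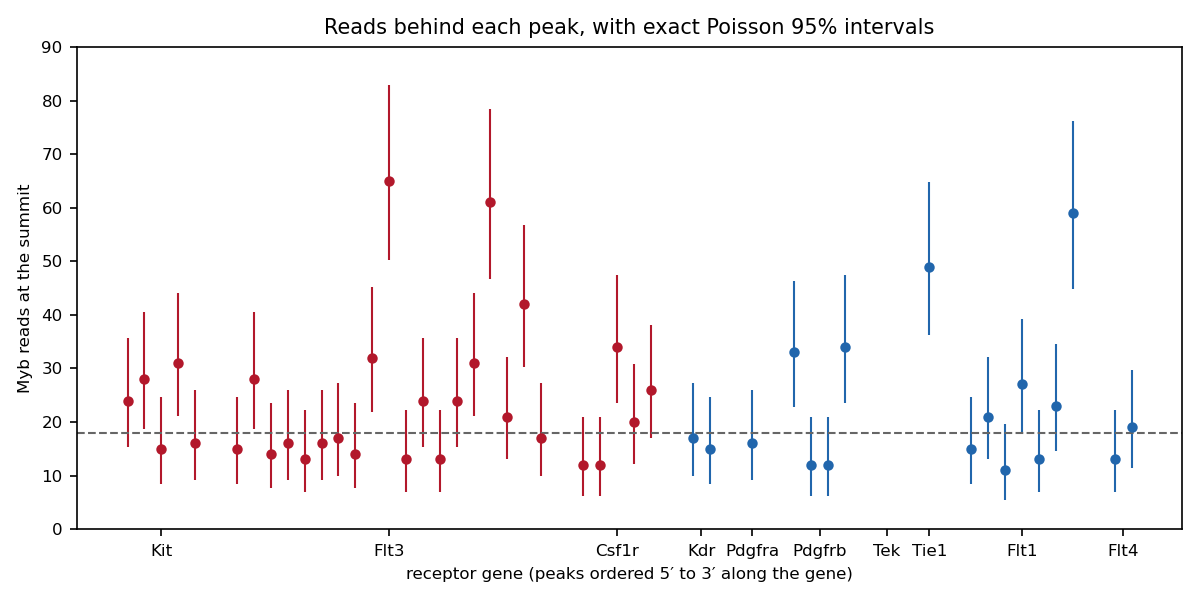
Myb reads at the summit of each peak (y axis), with exact Poisson 95% intervals as bars, for the peaks of each receptor gene in order along the gene (x axis). Red points are blood receptors, blue points vascular and stromal receptors, and the dashed line is the median of the whole list, 18 reads. The Flt3 peaks with 65 and 61 reads and the Flt1 window peak with 59 reads have intervals that overlap one another, and Tek has no point.

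Csf1r, on chromosome 18 (chr18:61100598-61132149, plus strand), had modest Myb binding at its start and in intron 2. Of the 5 peaks in its window, the intron 2 peak 3.11 kb after the main start (chr18:61107559-61109162) was the strongest, at 6.79-fold with 34 reads (23.6 to 47.5). This intron is known for the enhancer FIRE of macrophages, and whether the peak lies on it was not tested. The peak at the main start (chr18:61105370-61106019) had its summit 47 bp before that start, at 3.80-fold with 12 reads and held an AP-1 match. Another peak of 4.06-fold and 12 reads lay 30.8 kb upstream, inside intron 15 of Pdgfrb. The other 2 peaks, of 4.10- and 3.50-fold, were nearest to Hmgxb3, a gene downstream of Csf1r that encodes an HMG-box protein. The density at Csf1r, 3.80 per 100 kb, was above that of 75.4% of protein-coding genes, and no Csf1r peak held the Myb motif.

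Pdgfrb, the PDGF receptor of pericytes and smooth muscle, is the upstream neighbor of Csf1r (chr18:61045150-61085061), and its window shared 3 peaks with that of Csf1r. Its own strongest peak was in intron 2, 2.49 kb after the start (chr18:61047493-61048220), with 9.86-fold and 33 reads (22.7 to 46.3). This was higher than any Csf1r peak in fold enrichment, while the read intervals of the Pdgfrb and Csf1r intron 2 peaks overlapped. It was the only peak for which the start of Pdgfrb was the nearest protein-coding start. Pdgfra, the PDGF receptor of mesenchymal cells (chr5:75152292-75198215), had 1 peak, over exon 16 (chr5:75182899-75183159), of 4.23-fold with 16 reads. Its summit held a pair of Myb matches on opposite strands.

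Of the receptors for vascular endothelial growth factors, Flt1 had the most peaks. Flt1 (chr5:147561604-147726011, minus strand), also known as VEGF receptor 1, is carried by endothelium and monocytes. The window held 7 peaks, more than for 83.4% of protein-coding genes, but at 2.65 per 100 kb its density was above that of 64.7% only, since the gene is 164.4 kb long. The strongest peak of the whole set was in this window (chr5:147527176-147528853), at 18.8-fold with 59 reads (44.9 to 76.1) and rank 69 of the list. It lay inside Pan3, which runs from chr5:147430161 to 147548502, and 198.1 kb downstream of the Flt1 start. The Pan3 start 1818 bp away was that of a transcript beginning inside the gene. The summit held a pair of Myb matches with a RUNX match overlapping 1 of them. Inside Flt1 itself there were 4 peaks. An intron 1 peak 4.40 kb after the start had 7.26-fold with 27 reads, an intron 10 peak had 6.79-fold with 23 reads and a GATA match, and the other 2, both in intron 1, had 3.75- and 3.67-fold. Upstream peaks at 22.2 and 32.8 kb had 5.72- and 5.09-fold.

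Kdr, the main signaling receptor for Vegfa (chr5:75932827-75978458, minus strand), had 2 weak peaks, and neither was at its start. The one in the untranslated part of its last exon, exon 30, had 4.18-fold with 15 reads. The one in intron 10 had 2.82-fold with 17 reads and a background of 4 on a scale where each read counts 0.769. Flt4, the receptor of lymphatic endothelium (chr11:49609263-49652739), had 2 peaks as well. One had its summit 20 bp before the annotated start, at 4.47-fold with 13 reads, and this summit was 436 bp from the start given by RefSeq. The other, in the untranslated part of exon 30, had 5.59-fold with 19 reads and was nearest to the start of Scgb3a1, a secretoglobin gene.

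The angiopoietin receptors had no Myb peak inside their bodies. Tek, which encodes Tie2 (chr4:94739289-94874976), had none in its window of 235.7 kb, and the nearest summit was 103.7 kb outside the gene. Of the 1675 protein-coding genes at least as long as Tek, 66.8% had a peak in the body or within 50 kb. The study called peaks at q below 0.05, yet 7.24% of the listed peaks had a q-value above 0.05. Enrichment at Tek too weak to be listed would not have been detectable at this depth. The promoter of Tek in RefSeq (GRCm38.p6), from 250 bases before to 50 after the start, held a Myb match and a GATA match, and 28.3% of 32851 RefSeq promoters held a Myb match. Tie1, the orphan partner of Tek (chr4:118471191-118490061), had 1 peak, with 7.90-fold and 49 reads (36.3 to 64.8). That summit was 138 bp from the start of Cdc20, an activator of the anaphase-promoting complex, and 52.6 kb downstream of the Tie1 start.

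Across the set, 9 of 10 receptors had a peak in the body or within 50 kb, beside 68.7% of 21938 protein-coding genes. A summit within 3 kb of a start site, the promoter definition of the study, was found for 6 of 10 (Kit, Flt3, Csf1r, Pdgfrb, Flt1 and Flt4), beside 39.9% of protein-coding genes. A summit inside the gene body was found for 8 of 10, beside 35.4% of protein-coding genes, whose median length was 17.4 kb while the receptors ran from 18.9 to 164.4 kb. The 43 peaks had a median fold enrichment of 5.09 and a median of 19 reads, and 26 of them were above the list median. There were 8 above the 90th percentile of the list, of which 5 were in the Flt3 window and 1 each in the windows of Kit, Pdgfrb and Flt1. Of the 43 summits, 51.2% were within 3 kb of a start site of any gene, beside 57.6% in the whole list.

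Blood receptors had more peaks per length than the vascular and stromal receptors, and Flt3 carried most of that difference. The windows of Kit, Flt3 and Csf1r held 29 peaks in 633.1 kb, or 4.58 per 100 kb, and those of the other 7 genes held 17 in 1194 kb, or 1.42 per 100 kb. The ratio was 3.22, with an exact 95% counting interval of 1.71 to 6.24, in which the 3 shared peaks were counted on both sides. Inside gene bodies, 10 peaks in 183.1 kb stood against 10 in 493.9 kb, a ratio of 2.70 (1.01 to 7.22). Without Flt3 the window ratio was 1.52 (0.620 to 3.51) and the body ratio 1.74 (0.399 to 6.04), and the peaks numbered 10 against 17. Without Kit, whose long upstream window held few peaks, the window ratio was 5.59 (2.88 to 11.1). Without any other gene of the set, the window ratio ran from 2.58 to 4.26. The body ratio ran from 1.96 without Tek (0.731 to 5.24) to 3.90 without Kit (1.34 to 11.0) when a gene other than Flt3 was left out, and its interval reached below 1 without any one of Csf1r, Pdgfra, Tek, Tie1, Flt1 or Flt4. The intervals cover counting error only, and neighboring peaks are not independent.

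Measures of strength did not all follow the order of number. The median fold enrichment was 4.71 in the windows of blood receptors and 5.09 in those of vascular and stromal receptors. The ranges of 2.22 to 17.0 and 2.82 to 18.8 overlapped almost wholly. Median reads went the other way, at 20 for the blood receptors and 17 for the others. Above the list median of fold enrichment were 18 of 29 and 9 of 17 peaks, and above its 90th percentile 6 and 2. Summits whose nearest protein-coding start was that of a member numbered 13 for the blood receptors and 11 for the others. This order turned to 15 and 16 with windows of 100 kb, to 10 and 11 with 50 kb upstream of Kit, and to 8 and 11 without Flt3. With windows of 10 kb the counts were 9 and 9. By gene, the order of density was Flt3, Csf1r, Pdgfrb, Flt1, Flt4, Kdr, Kit, Tie1, Pdgfra and Tek, from 11.2 to 0 peaks per 100 kb in the 50 kb windows. With counts of 0 to 7 for all but Flt3, most neighbors in that order differed by few peaks. The widest step after Flt3 and Csf1r was from Flt1 with 7 to Flt4 with 2. Of the 4 Pdgfrb peaks, 3 were shared with the Csf1r window.

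**Figure D3:**
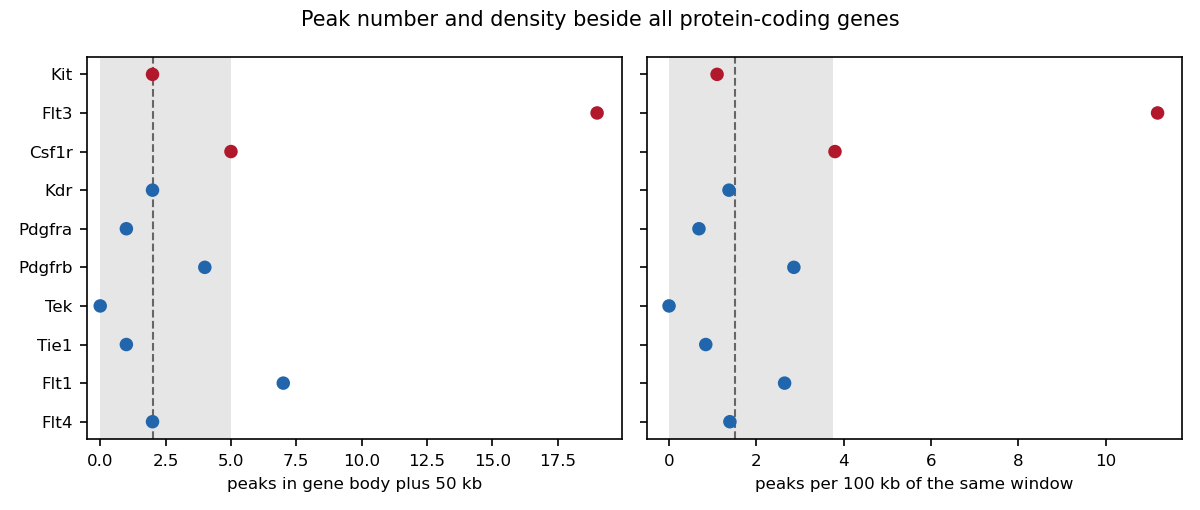
Number of Myb peaks in the gene body and 50 kb on each side (left x axis), and the same per 100 kb of window (right x axis), for the 10 receptor genes. Red points are blood receptors and blue points vascular and stromal receptors. The dashed lines are the medians over all protein-coding genes, 2 peaks and 1.52 per 100 kb, and the gray areas run from the first to the third quartile. Flt3 is far to the right of the gray area in both panels, Flt1 is to the right of it in the left panel only, and Kit is at or below the dashed line.

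Within 50 bp of the summit, the Myb motif was found in 7 of the 43 peaks, or 16.3% (exact 95% interval 6.81 to 30.7%), and in 16.7% of all peaks. The share was thus close to that of the whole list. The 7 were the Kit peak at 113.4 kb, the Flt3 peaks at 2.25, 26.2 and 41.6 kb upstream, the Pdgfra exon 16 peak, the Flt1 window peak inside Pan3 and a 3.67-fold peak in intron 1 of Flt1. ETS and RUNX matches were each found in 5 of 43 summits, or 11.6% (3.89 to 25.1%), beside 10.5% and 9.79% of all peaks. GATA matches were found in 4 (9.30%, beside 8.67%), and E-box matches in 3 (6.98%, beside 7.22%). In 21 of the 43 summits none of the 8 motif families was found, and the matching share of the whole list was not counted. For all 8 families the share in the whole list lay inside the binomial interval of the 43.

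Most genes that act directly downstream of the receptors had a Myb peak near a start, and fewer of the ligand genes had one. Of 23 genes for proximal signaling, 22 (95.7%, exact 95% interval 78.1 to 99.9%) had a peak in the body or within 50 kb, and 20 (87.0%, 66.4 to 97.2%) had one within 3 kb of a start, beside 68.7% and 39.9% of all protein-coding genes. The most peaks were at Pik3r1, a regulatory subunit of PI3 kinase, with 16, followed by the tyrosine kinase gene Fes and the phosphatase gene Ptpn11 (Shp2), both with 14, and the inositol phosphatase gene Inpp5d (Ship1) with 13. Only Plcg1, phospholipase C gamma 1, had none. Of 16 ligand genes, 12 (75.0%, 47.6 to 92.7%) had a peak and 5 (31.3%, 11.0 to 58.7%) had one near a start, with both shares of all protein-coding genes inside these intervals. Angpt1, an activating ligand of Tek, had 14 peaks up to 13.2-fold, Flt3l had 10 up to 11.2-fold, Vegfb had 7 and Vegfa 6. None of the Vegfb peaks was within 3 kb of its start. Such counts take in 50 kb on each side, so a peak may lie nearer to another gene. Kitl, the ligand of Kit, had none, and neither had Pdgfc, Pdgfd and Vegfc.

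Among 48 other receptor tyrosine kinases, 38 (79.2%, 65.0 to 89.5%) had a peak within 50 kb and 11 (22.9%, 12.0 to 37.3%) had one within 3 kb of a start, beside the same 68.7% and 39.9%. The most peaks were at Fgfr2 with 33, where the annotated gene runs over 2961 kb and the density was 1.08 per 100 kb. Igf1r followed with 16, Fgfr1 with 13 and Fgfr4 with 10. For comparison within the kinases, 6 of the 10 members had a summit near a start. These were 3 of 3 blood receptors (29.2 to 100%) and 3 of 7 vascular and stromal receptors (42.9%, 9.90 to 81.6%).

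Marker genes were counted in the same way to place the receptors among genes of the cells that Lin– marrow may hold. Beside the counts stand the 68.7% of all protein-coding genes with a peak and the 39.9% with one near a start. All 14 stem and progenitor markers had a peak, and 9 (64.3%, 35.1 to 87.2%) had one within 3 kb of a start, with 20 peaks at Lyl1, 16 at Lmo2, 15 at Meis1 and 14 at Gata2, which are transcription regulators of blood progenitors. All 12 endothelial markers had a peak too, and 6 had one near a start, with 21 at Pecam1, 10 at Eng and 6 each at Esam and Plvap, some of which blood progenitors also express. Of 12 stromal markers 6 had a peak and 2 had one near a start, with 13 at Runx2, 10 at Adipoq and 6 each at Bglap and Sp7. Of 10 markers of mature lineages 8 had a peak and 3 had one near a start, with 7 at Hbb-bt, and S100a8 and S100a9 had none. Of 10 mast cell and basophil markers 8 had a peak and 5 had one near a start, with 8 at Il1rl1, 5 each at Mcpt4, Mcpt8 and Ms4a2, and none at Tpsb2 and Fcer1a. A peak does not show that the gene was expressed, so these counts do not measure which cells were present.

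**Figure D4:**
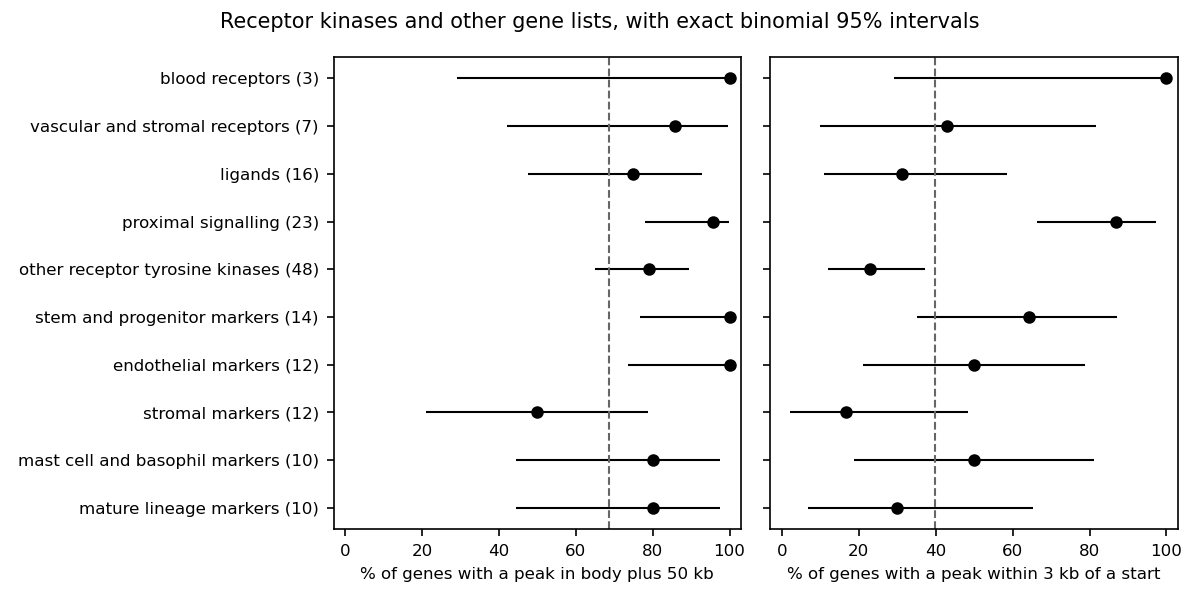
Share of genes in each list with a Myb peak in the body or within 50 kb (left x axis, percent) and within 3 kb of a start site (right x axis, percent), with exact binomial 95% intervals as bars and the number of genes in parentheses. The dashed lines are the shares over all protein-coding genes, 68.7% and 39.9%. In the right panel, proximal signaling genes are at 87.0%, ligands at 31.3% and other receptor tyrosine kinases at 22.9%.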

How the data were processed

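Myb ChIP-Seq peaks of 1 library were used, called by the authors against 1 IgG library, and groups were taken from the sample titles. Per the labels and the methods of the study, chromatin was sonicated, tagged by Tn5 on beads, amplified and sequenced single-end. The authors used Cutadapt 1.15, BWA 0.7.13 with the mm10 build, Picard, mapping-quality and blacklist filters, and MACS2 2.1.1.20160309, and kept narrow peaks shared by pseudo-replicates. In the deposited list, fold enrichment is a ratio of pileups, p-values and q-values are −log10 values, and the score repeats the p-value and was not used. PCR copies, Tn5 preference and the local IgG background can all move a fold value.

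Summits were compared with GENCODE vM21 genes, and 1-based mm10 coordinates are given. The nearest protein-coding start was taken over all annotated transcripts of protein-coding genes, so it can lie inside a gene. Exon and intron numbers follow the basic transcript with the most exons. A peak within the windows of several genes was counted for each, and nearest genes were not counted for the other gene lists. Numbers of reads were recovered from fold enrichment and p-value with a pileup scale of 0.769 and a lowest background of 1.46, which gave whole reads in 100.0% of peaks within a tolerance of 0.002 in log10 p. Backgrounds are on the scale of the pileup, on which each read counts 0.769. Recovery and window counting were tested on simulated data. Motifs were searched within 50 bp of summits. Intervals are exact (Clopper-Pearson or Poisson, 95%). Software was Python 3.11.15 with numpy 2.4.6, scipy 1.17.1, pandas 2.3.3 and pysam 0.24.0.

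The receptor genes and gene lists were chosen with earlier results of these data known. All receptors were named, with all peaks where there were up to 5 and otherwise the 5 strongest and the range of the others. Flt3 summits at the start and with a Myb match, and the peak beyond Kit, were added after their values were seen. From other lists, up to 4 genes with the most peaks were named, and those with none where there were at most 5. Alternatives covered the peak threshold, the window, merging of near summits, the form and window of the motif, and leaving out a gene.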

Additional observations from a re-analysis of the deposited data

How the results depend on the processing

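The density ratio stayed above 1 under the alternatives tried, from 1.52 without Flt3 to 5.59 without Kit. By summits nearest to a member, the order of the groups turned with windows of 100 kb (15 and 16). It also turned with 50 kb upstream of Kit (10 and 11) and without Flt3. The groups were tied with windows of 10 kb (9 and 9). The order by window peaks turned without Flt3. With only peaks whose −log10 q-value reached 5, the blood receptors had 14 peaks, of which 8 were nearest to a member, and the vascular and stromal receptors had 8, of which 4 were inside a member and 4 nearest to one. With windows of 10 kb both groups had 11 peaks, and with windows of 100 kb the vascular and stromal receptors had 28. The share of member summits with a Myb match was 32.6% with 100 bp on each side, beside 30.0% of all peaks, and 62.8% for the form AACNG, beside 54.3%. Without Flt3, an alternative added after the data had been seen, the blood receptors had 10 peaks, 4 inside a member and 8 nearest to one, and the density ratio was 1.52, beside 17 peaks and 11 nearest for the other receptors. Other counts for the receptors stayed within 1.5 times of those reported. With windows of 10 kb, 43.8% of ligands, 50% of other receptor tyrosine kinases, 25% of stromal markers, 50% of mature lineage markers and 52.6% of all protein-coding genes had a peak, and with the stricter q-value 43.8% of ligands, 58.3% of other receptor tyrosine kinases, 66.7% of endothelial markers and 55.0% of all protein-coding genes. No paired analysis was possible because there was 1 library of each kind. No listed peak had fewer than 7 reads, and weaker binding was not detectable at this depth.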

Other observations

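The stretch of chromosome 5 from Pdgfra to Kdr, 926.2 kb with the windows, held 19 Myb peaks, of which 11 were outside the windows of the 3 receptors. Between Pdgfra and the Kit window there were 2 such peaks, of 4.44- and 3.99-fold, at -294.9 and -293.5 kb from the start of Kit. Beyond Kit, the 19.9-fold peak was followed by one 87.9 kb past the end of the gene with 6.19-fold and 24 reads and, farther on, by 2 of 2.82- and 3.67-fold. In a group of 5 peaks 169.8 to 196.4 kb past the end of Kit, Kdr had the nearest protein-coding start, at over 125 kb. Starts of other annotated genes, Gm19590 and Gm28865, were nearer, at 118 to 9137 bp. The strongest peak of the group had 7.35-fold with 28 reads and held a Myb match and an AP-1 match. The stretch from Flt3 to Flt1, 495.3 kb, held 28 peaks, and only 2 of them, both inside Pan3 with 4.16- and 3.78-fold, were outside the windows.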
